A study of Homo sapiens with 6 samples.

Results

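AURKA and 9 further genes with known roles in taking the primary cilia (PC) apart, or in whether the centriole grows one, were followed in EJ cells after STIL-knockdown. The 10 genes, AURKA, NEDD9, HDAC6, PLK1, NEK2, KIF2A, KIF24, TTBK2, CCP110 and CEP97, were taken by symbol, and all 10 were found among the 15953 genes of the deposited log2 CPM tables. RNA-seq was conducted on 6 libraries of EJ, an established human bladder cancer cell line, with 3 libraries of cells stably carrying the STIL hairpin (shSTIL) and 3 of cells carrying the negative control hairpin (shNC). Both hairpins were delivered by lentivirus, so the control cells were transduced as well, and no other treatment is named in the labels. Whether the cells were a pool or 1 clone, how many hairpins were used and whether the replicates were separate cultures are not given in the sources used here, so the p-values measure the spread between these libraries, which may be technical. The sample labels name the groups by hairpin, while the column headings of the tables name them by siRNA.

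PC grow from the mother centriole, and a dividing cell has to resorb its cilium before the centriole can serve the spindle. In the known pathway the scaffold NEDD9 activates the kinase AURKA, which switches on the tubulin deacetylase HDAC6 in the cilium, while PLK1 with the depolymerizing kinesin KIF2A and NEK2 with the related kinesin KIF24 act on the microtubules at its base. CCP110 and CEP97 form a cap on the distal end of the centriole that blocks PC assembly, and TTBK2 is the kinase that is brought to the distal appendages and helps to remove this cap. Of the 10 genes, TTBK2 is thus the one placed in PC assembly in this outline. The other 9 are placed in disassembly or in holding assembly back, and further roles of these genes are left aside.

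The estimated reads of the 15953 listed genes summed to 16214772 to 16431243 per library in the shNC group and 16734469 to 16901634 in the shSTIL group. STIL, the targeted gene, was left at 25.2% of its control level (log2 fold change -1.99, standard error (SE) 0.05, adjusted p = 6.1e-12 by limma). Of the 15 epithelial and urothelial markers looked for, 13 were listed: the keratin genes KRT8 and KRT18 had mean log2 CPM of 8.56 and 9.32 in shNC libraries, whereas KRT5, KRT20, UPK2 and CDH1 had at most 5 reads in any library. At a limma adjusted p under 0.01, 2 of the 13 fell and 2 rose (15.4% each, against 23.6% and 23.5% of all genes). In shSTIL libraries KRT8 was at 61.5% and UPK1B, with 5 to 20 reads per library, at 45.9% of the control level. KRT7 was at 141% and PPARG at 119%. Of the 12 fibroblast, leukocyte and endothelial markers 7 were listed, with COL1A2, DCN, LUM, PTPRC and CD3E not listed, and CD68 was the most abundant with 173 to 250 reads per library.

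STIL-knockdown cells held less mRNA for both cap genes and more for the kinase that removes the cap. CCP110 was left at 61.0% and CEP97 at 65.1% of the control level, while TTBK2 reached 1.66 times the control level. KIF24, the kinesin that brings CCP110 to the mother centriole, was left at 69.7%. The part of the cell cycle in these changes was not tested. The mitotic and cilium-resorbing enzymes AURKA, PLK1, NEK2 and HDAC6 fell by smaller amounts, to between 83.1% and 86.9% of the control level. Of the 10 genes, 7 fell, 1 rose and 2 (KIF2A and NEDD9) did not pass the test, with a median log2 fold change of -0.24 against 0.01 over all genes. Of all genes tested, 23.6% fell and 23.5% rose at this threshold (limma with a mean-variance trend, Benjamini-Hochberg adjusted p under 0.01). Of the 15953 genes 11319 averaged 1 or more in log2 CPM, against 9 of the 10 genes. The all-gene shares here and below are therefore not matched for level. In a fit limited to such genes, 7448 of the 11319 were called, with 7 of the 10 genes lower and 1 higher. The values of the shSTIL libraries lay wholly below those of the shNC libraries for 7 of the 10 genes and wholly above them for 2, against 30.5% and 29.9% of all genes. Of the 8 calls, 4 (HDAC6, TTBK2, CCP110 and CEP97) held whichever of the 6 libraries was left out. The number of genes that fell was 4 without shSTIL replicate 1, 4 without shSTIL replicate 2 and 3 without shSTIL replicate 3, and it was 2 when a change beyond 1.2-fold was required, with CCP110, CEP97 and TTBK2 as the 3 genes past that bound.

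**Figure D1:**
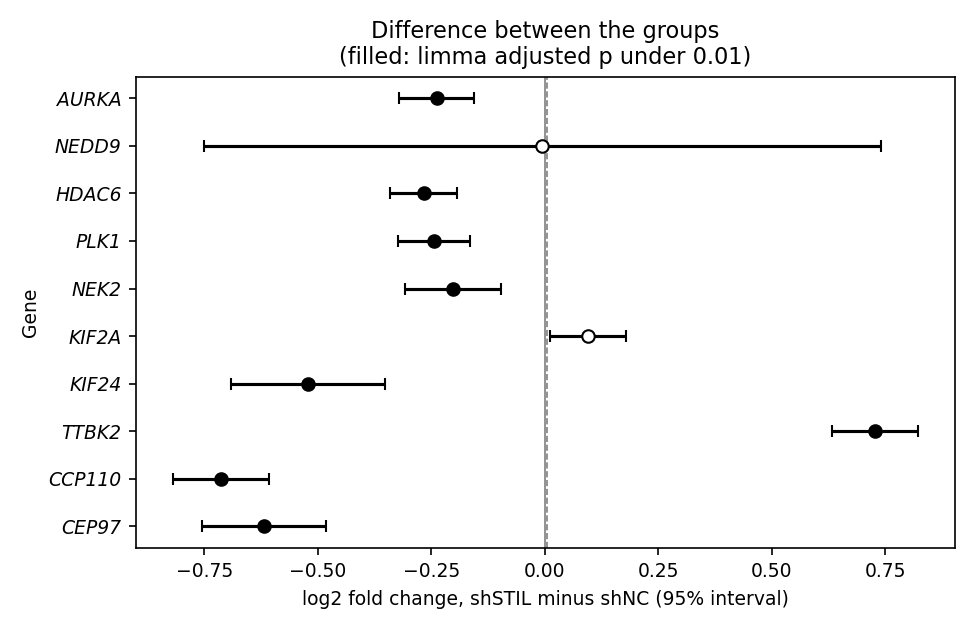
Log2 fold change of each of the 10 genes (x axis, shSTIL minus shNC, with 95% intervals from limma over 3 libraries per group), with filled points for an adjusted p under 0.01 and a dashed line at the median of all genes. TTBK2 stands alone on the right at 0.73, CCP110 (-0.71), CEP97 (-0.62) and KIF24 (-0.52) lie farthest left, and the interval of NEDD9 runs from -0.75 to 0.74.

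The promoters of the genes that moved most, and of both mitotic kinases for which a sequence was at hand, are shown for the 120 bases before the RefSeq transcription start (GRCh38.p14, 5′ to 3′ along the gene), with matches to CCAAT or to the CHR word TTTGAA, on either strand, in capitals.
CCP110, chr16:19523822-19523941, plus strand: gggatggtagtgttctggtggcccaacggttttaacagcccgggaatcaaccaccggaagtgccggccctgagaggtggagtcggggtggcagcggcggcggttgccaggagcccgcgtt
CEP97, chr3:101724494-101724613, plus strand: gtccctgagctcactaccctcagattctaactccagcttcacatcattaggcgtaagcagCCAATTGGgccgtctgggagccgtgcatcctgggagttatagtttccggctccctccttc
TTBK2, chr15:42920779-42920898, minus strand: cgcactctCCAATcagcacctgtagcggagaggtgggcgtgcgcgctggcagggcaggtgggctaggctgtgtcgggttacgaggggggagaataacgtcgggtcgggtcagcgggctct
PLK1, chr16:23678769-23678888, plus strand: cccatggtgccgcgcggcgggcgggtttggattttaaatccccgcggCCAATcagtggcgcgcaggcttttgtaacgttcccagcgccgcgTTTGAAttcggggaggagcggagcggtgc
NEK2, chr1:211675622-211675741, minus strand: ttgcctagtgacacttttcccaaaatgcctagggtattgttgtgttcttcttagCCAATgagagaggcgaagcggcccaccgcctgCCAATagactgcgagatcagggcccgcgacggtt
The CHR word is an element known from genes that peak in G2 and mitosis, and CCAAT is the word bound by NF-Y. Windows from 250 bases before to 50 after the start were searched for TTTGAA, for its variant TTCGAA and for CCAAT, on both strands, and the 3 words do not overlap each other within a match. The RefSeq table held 13 windows for 9 of the 10 genes and none for AURKA. PLK1 carried TTTGAA, starting 29 bases before the start, and it was the only one of the 13 windows with that word, which 15.2% of all 35116 windows hold. KIF24 carried TTCGAA, beginning at base 2 counted from the start, and 1.45% of all windows hold this word. That RefSeq start, next to base 34329269 of chr9, lies outside the GENCODE 29 span of KIF24 (34252381 to 34311371). CCAAT was found in 8 of the 13 windows and in 34.6% of all windows. NEK2 had a pair, 66 and 34 bases before the start, and TTBK2 had 1 match, 112 bases before its start. KIF24 had matches 154, 100 and 47 bases before the start. In HDAC6, 2 windows held a pair each, 233 and 137 bases before the start in 1 and 115 and 19 in the other. In CEP97 the matches on both strands share bases, and CCP110 had none of the 3 words in its window. Windows of 1 gene can overlap, and a match is a description of letters only.

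Both cap genes fell in every shSTIL library. CCP110 (chromosome 16 of GRCh38, 19523811 to 19553408, plus strand) had log2 CPM of 5.74, 5.81 and 5.70 in shNC replicates 1, 2 and 3 and 5.05, 5.07 and 4.98 in shSTIL replicates 1, 2 and 3. Every shSTIL library was lower than every shNC library, by more than 0.6 on this scale, and the gap was far wider than the spread within either group (SD 0.05 in each, n = 3). These values rest on 824 to 910 reads per shNC library and 535 to 576 per shSTIL library. The log2 fold change was -0.71 (SE 0.05, adjusted p = 3.6e-08 by limma), and 1252 of the 15953 genes ranked at or before CCP110 by fall. CEP97 (chromosome 3, 101723925 to 101770562, plus strand), which binds CCP110 and is needed for it to stay on the centriole, had log2 CPM of 4.77, 4.89 and 4.75 in the shNC libraries and 4.17, 4.16 and 4.22 in the shSTIL libraries. Its groups did not overlap either, with a log2 fold change of -0.62 (SE 0.06, adjusted p = 1.8e-06 by limma). The log2 ratio of CCP110 to CEP97 was 0.95 ± 0.03 in shNC and 0.85 ± 0.08 in shSTIL libraries (SD, n = 3), a difference of -0.09 (exact two-sided permutation test, p = 0.1), with ranges that did not overlap but lay close together.

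TTBK2 (chromosome 15, 42738734 to 42920809, minus strand) went the other way. It had log2 CPM of 5.41, 5.45 and 5.37 in the shNC libraries and 6.19, 6.09 and 6.14 in the shSTIL libraries. All 3 shSTIL libraries were higher than all 3 shNC libraries, with 1170 to 1245 reads against 657 to 710. The log2 fold change was 0.73 (SE 0.04, adjusted p = 1.0e-08 by limma), a level of 155% to 177% of control by its 95% interval, and TTBK2 ranked 1108 by rise among all genes. Its brain-enriched relative TTBK1 had at most 1 read in any library. Within each library, the mean log2 CPM of both cap genes minus that of TTBK2 was -0.16, -0.10 and -0.15 in the shNC group and -1.58, -1.47 and -1.54 in the shSTIL group. The balance between cap and cap-removing kinase mRNA was therefore 2.63 times lower in STIL-knockdown cells, in 3 of 3 libraries (difference -1.39, exact two-sided permutation test, p = 0.1). This is the smallest p that 3 libraries against 3 allow, and the difference stayed between -1.42 and -1.37 whichever library was left out. As all 3 genes already lay apart in these directions, the ratio had to separate the groups. The ratio sums up their changes and is no further test.

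**Figure D2:**
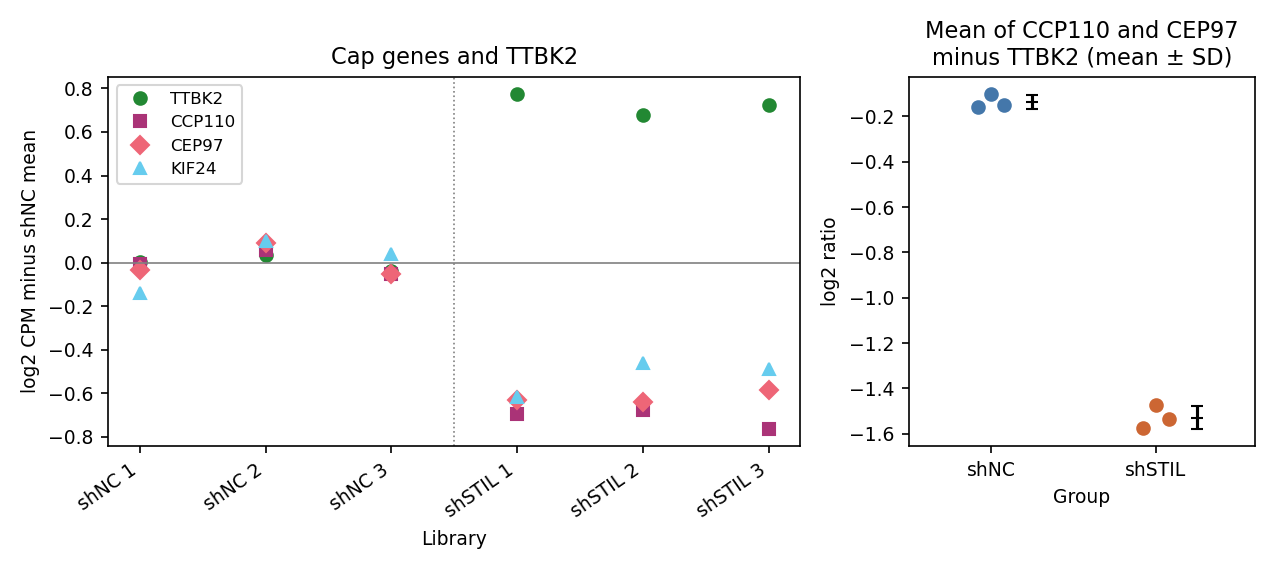
Left, log2 CPM of TTBK2, CCP110, CEP97 and KIF24 in each library (x axis) relative to the gene's shNC mean (y axis); right, the log2 ratio of the cap genes to TTBK2 by group, with points for libraries and bars for mean ± SD (n = 3). TTBK2 lies above 0 and the other 3 genes below 0 in every shSTIL library, and the ratio moved from -0.14 to -1.53.

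KIF24 (chromosome 9, 34252381 to 34311371, minus strand) is a depolymerizing kinesin that binds CCP110 and is phosphorylated by NEK2. Its log2 CPM was 4.40, 4.64 and 4.58 in the shNC libraries and 3.93, 4.08 and 4.05 in the shSTIL libraries. The groups did not overlap, although KIF24 varied more among control libraries (SD 0.13, n = 3) than any other of the 10 genes except NEDD9. The log2 fold change was -0.52 (SE 0.08, adjusted p = 6.9e-05 by limma), and the call was lost without shNC replicate 3 (adjusted p = 0.0107) and without shSTIL replicate 3 (adjusted p = 0.0117). UBAP1 overlaps KIF24 on the other strand, and whether the counting used strand is not given in the sources used here. KIF2A (chromosome 5, 62306162 to 62537249, plus strand), the kinesin that works with PLK1, did not follow KIF24. Its log2 CPM was 7.01, 7.08 and 7.04 in the shNC libraries and 7.21, 7.08 and 7.13 in the shSTIL libraries, which places the lowest shSTIL library just above the highest control. The log2 fold change of 0.10 (95% interval 0.01 to 0.18, limma adjusted p = 0.0494) did not pass the threshold of 0.01. It passed under quantile normalization (0.14, adjusted p = 0.00659) and when libraries were centred on their medians (0.14, adjusted p = 0.00672). DIMT1 and IPO11 overlap KIF2A, and its estimated reads were not whole numbers in any of the 4 deposited count tables, as happens when RSEM shares reads between genes.

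Among the mitotic kinases, AURKA (chromosome 20, 56369389 to 56392337, minus strand) had log2 CPM of 7.30, 7.22 and 7.36 in the shNC libraries and 7.07, 7.03 and 7.07 in the shSTIL libraries. Each shSTIL library was lower than each shNC library, and the gap between the nearest libraries of both groups was smaller than 0.2. The log2 fold change was -0.24 (SE 0.04, adjusted p = 1.2e-04 by limma), which left 80.1% to 89.8% of the control level by its 95% interval, and the call was lost without shNC replicate 1 or any 1 shSTIL replicate (adjusted p up to 0.0149). PLK1 (chromosome 16, 23677656 to 23690367, plus strand), which drives KIF2A at the cilium base and many steps of mitosis, had log2 CPM of 7.50, 7.37 and 7.46 against 7.20, 7.19 and 7.22. The groups were again apart, with a log2 fold change of -0.24 (SE 0.04, adjusted p = 6.6e-05 by limma), and the call was lost without shSTIL replicate 1, 2 or 3 (adjusted p of 0.0104, 0.0107 and 0.01). The log2 ratio of AURKA to PLK1 was -0.15 ± 0.05 in shNC and -0.14 ± 0.02 in shSTIL libraries (SD, n = 3), a difference of 0.006 (exact two-sided permutation test, p = 1). NEK2 (chromosome 1, 211658657 to 211675630, minus strand), the kinase that acts on KIF24, had log2 CPM of 5.75, 5.86 and 5.76 against 5.52, 5.65 and 5.60. Its difference was the smallest among the 7 genes that fell (log2 fold change -0.20, SE 0.05, adjusted p = 0.00298 by limma), and it did not pass when any 1 of the 6 libraries was dropped, with adjusted p from 0.0189 to 0.0429. Pseudogenes of AURKA and of NEK2 are annotated in the genome and were not listed in the tables, so reads shared with them could not be followed.

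These 3 kinases peak in G2 and mitosis, and other genes of the cell cycle moved with them. Of 28 other G2/M genes 24 fell and the other 4 did not pass the test (median log2 fold change -0.54), and the log2 of their summed CPM was 12.45 to 12.50 in shNC and 11.87 to 11.90 in shSTIL libraries. Of 20 S phase genes all 20 fell (median -1.18), with a summed level of 11.69 to 11.72 against 10.45 to 10.47. The shares that fell, 85.7% in G2/M and 100% in S phase, compare with 23.6% of all genes. AURKA, PLK1 and NEK2 thus lay nearer to 0 than the middle of the G2/M list. The part of the cell cycle in the changes of these kinases, of the cap genes and of the rest of the 10 genes was not tested. Fewer cells in a phase and less RNA per cell cannot be told apart in bulk libraries. The genes most like AURKA over the 6 libraries, out of 9942 genes averaging 3 or more on the log2 CPM scale, were DCLRE1B, PLD2, COX7C, STAG3 and RAB1B, whose values relative to their own control means differed from those of AURKA by 0.016 to 0.025 (root mean square, log2).

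HDAC6 (chromosome X, 48801377 to 48824982, plus strand), the deacetylase through which AURKA destabilizes the axoneme, showed the tightest replicates of the 10 genes. Its log2 CPM was 6.45, 6.44 and 6.45 in the shNC libraries and 6.17, 6.19 and 6.18 in the shSTIL libraries. The spread within a group was 0.01, against a log2 fold change of -0.27 (SE 0.03, adjusted p = 1.7e-05 by limma), and shSTIL libraries kept 83.1% of the shNC level. Of the other enzymes of tubulin acetylation, the deacetylase gene SIRT2 rose (log2 fold change 0.34, limma adjusted p = 1.7e-04), and the acetyltransferase gene ATAT1 stayed within its spread (log2 fold change -0.01, adjusted p = 0.928). NEDD9 (chromosome 6, 11183298 to 11382348, minus strand), the scaffold that activates AURKA, was close to the limit of detection. It had 3 to 6 reads per shNC library and 3 to 10 per shSTIL library, 15 and 17 reads in all, at log2 CPM of -1.02, -1.72 and -1.01 against -0.50, -1.76 and -1.49. The groups overlapped, and with a 95% interval of 59.4% to 167% of the control level a change was not detectable at this depth.

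**Figure D3:**
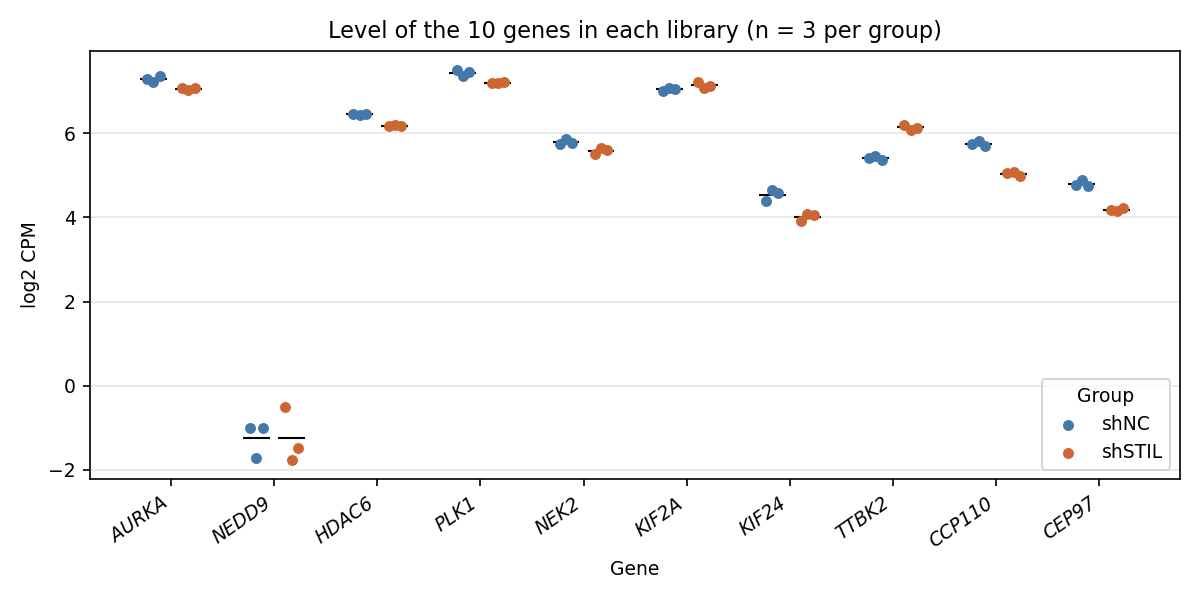
Log2 CPM (y axis) of the 10 genes in each of the 3 shNC and 3 shSTIL libraries, with points for libraries and lines for group means. NEDD9 lies below -0.4 in every library, while the other 9 genes lie above 3.9.

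Levels were set side by side between genes as CPM per kilobase of the longest coding transcript in GENCODE 29, a length that may differ from the transcripts expressed. In shNC libraries PLK1 (78.2) and AURKA (69.9) led, followed by KIF2A (39.3), NEK2 (26.0), HDAC6 (20.8) and CCP110 (9.69), and then by TTBK2 (3.90), KIF24 (3.81) and CEP97 (3.34). NEDD9 stood at 0.0876. The ranges of neighbours in this order did not overlap among libraries, except that KIF24 (3.45 to 4.07) overlapped both TTBK2 and CEP97. In shSTIL libraries the order changed in 1 place. TTBK2, at 6.25 to 6.68, lay above CCP110, at 5.70 to 6.06, whereas in every control library CCP110 was above 9.3 and TTBK2 below 4.1 on this scale.

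Further genes of the pathway were taken from lists of known partners, chosen by role. Of 70 such genes 68 were measured, and 25 fell, 20 rose and 23 did not pass the test, with a median log2 fold change of -0.05 (36.8% lower and 29.4% higher, against 23.6% and 23.5% of all genes). Of these 68 genes 65 averaged 1 or more in log2 CPM. In the fit limited to such genes, 26 partner genes fell and 19 rose, beside 7448 calls among 11319 genes. PIFO and KIF2B were not listed. Without shNC replicate 3 or any 1 shSTIL replicate, 12 or 13 rose, and 14 fell without shSTIL replicate 3, while the calls over all genes dropped from 7509 to between 4900 and 5638 with 1 library left out.

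Of 16 genes listed as partners of the cap or of its turnover, 8 fell and 5 rose (median log2 fold change -0.19). These are 50% and 31.2%, against 23.6% and 23.5% of all genes. CCNF, the F-box protein that marks CCP110 for degradation, fell with its substrate, to 53.2% of the control level (log2 fold change -0.91, SE 0.05, adjusted p = 1.8e-09 by limma). MPHOSPH9, which brings CCP110 and CEP97 to the mother centriole and is a substrate of TTBK2, was left at 62.7% (log2 fold change -0.67, adjusted p = 2.2e-07). CEP162 (-0.91) and SSX2IP (-0.67), proteins of the transition zone and of centriolar satellites, fell as well (adjusted p of 1.1e-06 and 3.8e-07). CEP290, a transition zone protein that is held in check by CCP110, was among the 5 that rose (0.48, adjusted p = 8.8e-07).

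Of 8 genes of the distal appendages, which receive TTBK2, 3 fell and 3 rose (37.5% each, against 23.6% and 23.5% of all genes), with a median log2 fold change of 0.02. CEP164, the docking protein of TTBK2, rose to 1.25 times the control level (log2 fold change 0.32, limma adjusted p = 7.3e-05), and SCLT1 rose by a similar amount (0.33, adjusted p = 1.4e-04). ANKRD26 (-0.48, adjusted p = 0.00243) and CEP89 (-0.37, adjusted p = 0.00133) fell.

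Of 26 measured partners of AURKA 11 fell and 5 rose (median log2 fold change -0.15). These are 42.3% and 19.2%, against 23.6% and 23.5% of all genes. KCTD17, the adaptor of the ligase that removes trichoplein, an activator of AURKA at the mother centriole, fell most, to 40.4% of the control level (log2 fold change -1.31, SE 0.09, adjusted p = 2.6e-08 by limma). NDEL1, which protects trichoplein from that ligase, rose to 1.56 times the control level (0.64, adjusted p = 3.0e-07), and the gene of trichoplein itself, TCHP, did not pass the test (log2 fold change 0.07, adjusted p = 0.417). TPX2, the spindle activator of AURKA (-0.57, adjusted p = 2.0e-09), and CDC20, a coactivator of the anaphase-promoting complex (-0.63, adjusted p = 9.1e-09), fell, and both are also in the G2/M list. Of 16 related kinases and kinesins 3 fell and 6 rose (18.8% and 37.5%, against 23.6% and 23.5% of all genes). KIF2C, the mitotic relative of KIF2A, fell (-0.48, adjusted p = 2.2e-08), and PLK2 (0.43, adjusted p = 4.1e-08), NEK3 (0.37, adjusted p = 1.2e-04) and NEK1 (0.37, adjusted p = 5.8e-05) rose. AURKC (11 to 15 reads per shNC library, 30 to 39 per shSTIL library) and NEK10 (2 to 9 against 14 to 20) are the highest points of that list in the plot of lists and rest on few reads.

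**Figure D4:**
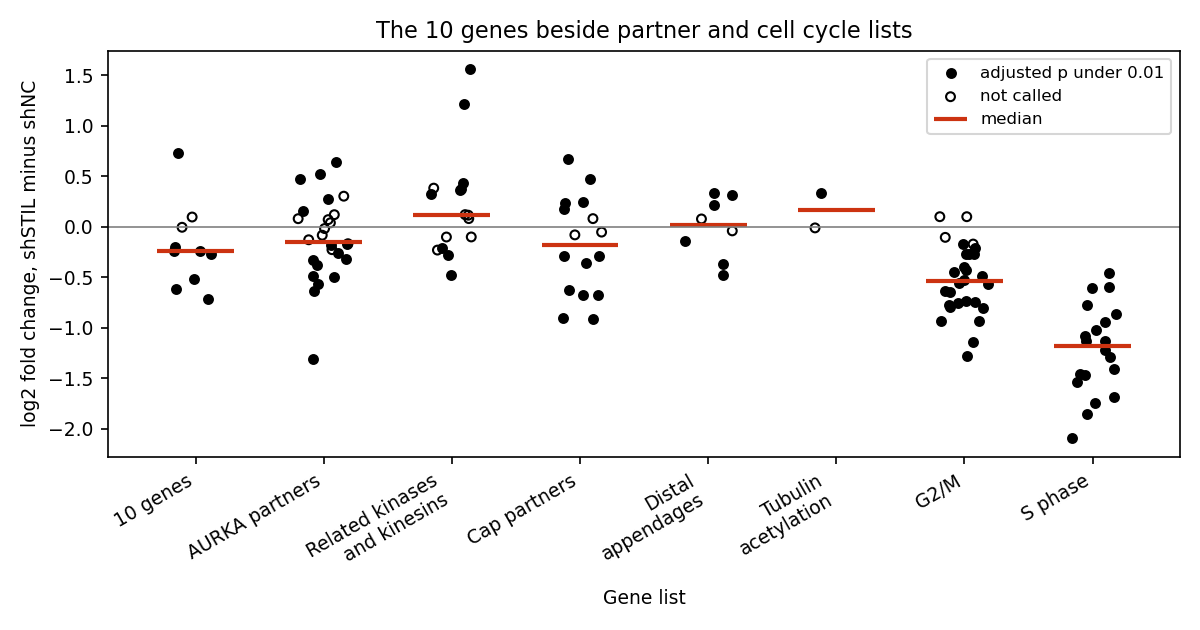
Log2 fold change (y axis, shSTIL minus shNC) of each measured gene in the 10-gene set, the partner lists and the cell cycle lists (x axis), with filled points for a limma adjusted p under 0.01 and red lines for medians. Partner lists spread to both sides of 0, with medians from -0.19 to 0.16, whereas the medians of the G2/M and S phase lists are -0.54 and -1.18.

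The study lists 3 siRNA sequences against STIL, and the hairpin sequence of the stable cells is not given in the sources used here. The 3′ UTRs of the genes (GENCODE 29, the longest per gene) were therefore searched only for the 7-base words that pair with bases 2 to 8 of the listed antisense strands, and all 5 matches in the cap genes and TTBK2 are shown, with the word in capitals.
CCP110, word of siSTIL#2, chr16:19551723-19551729, plus strand: ctttaaaaactTGGATTAaccactcaatg
CEP97, word of siSTIL#1, chr3:101767815-101767821, plus strand: ttccttaactgTACATATtatcttgaatg
CEP97, word of siSTIL#2, chr3:101769043-101769049, plus strand: tttatctgtttTGGATTAttttttgtata
CEP97, word of siSTIL#3, chr3:101766571-101766577, plus strand: acctgaaaaagTTCCACAtttggaagaca
TTBK2, word of siSTIL#3, chr15:42740383-42740389, minus strand: tcaccttgaatTTCCACAcaatctcaaga
The siSTIL#2 word was found in 2 of the 9 genes that averaged 1 or more in log2 CPM, CCP110 and CEP97, which both fell, and in 13.1% of 11078 genes at that level. The siSTIL#3 word was found in 2 of the 9, TTBK2, which rose, and CEP97, and in 17.7% of genes. The siSTIL#1 word was found in CEP97 alone among the 9, and in 18.6% of genes. The 3′ UTRs of CEP97 and TTBK2 are long, 5011 and 7061 bases, and the part of such matches in the changes was not tested.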

How the data were processed

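Total RNA of EJ cells was sequenced by BGI on the BGISEQ-500. The authors used SOAPnuke for read filtering, Bowtie2 for mapping to transcript sequences and RSEM for the estimate per gene. They deposited estimated counts of 15957 genes, used here for 4 libraries, and log2 CPM of 15953 genes from edgeR for all 6. The submitters' processing notes name hg38; versions are not given in the sources used here. RSEM shares reads between similar sequences.

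The reads behind the log2 CPM were recovered from their steps; 87.1% to 87.4% of values were whole (within 0.005 reads), and the largest difference from a deposited count was 0.000491 reads. Differences (shSTIL minus shNC) were fitted on the log2 CPM of all genes with limma 3.58.1 (R 4.3.3; trend; Benjamini-Hochberg; threshold 0.01); the prior count of 2 understates changes of low genes. edgeR 4.0.16 and DESeq2 1.42.0 were run on rounded recovered reads. Single values were compared by exact permutation over 20 labellings. Fits were tested on simulated data. There, the share of unchanged genes among the calls was above the threshold of 0.01 for limma and below it for edgeR. Named genes are the 10 genes, STIL and up to 4 called genes per partner list by size of change (mean log2 CPM of at least 1). The genes and lists were chosen with earlier results of these data known. CEP290, TCHP, ATAT1, TTBK1, AURKC and NEK10, and the ratios of AURKA to PLK1 and of CCP110 to CEP97, were added after their values were seen. Results of 1 listed gene are not reported here.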

Additional observations from a re-analysis of the deposited data

How the results depend on the processing

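CCP110, CEP97, TTBK2 and STIL passed the threshold of 0.01 in the same direction under every alternative tried. AURKA missed the threshold without the mean-variance trend (-0.24, adjusted p = 0.0102) and against 1.2-fold with limma treat (-0.24, adjusted p = 1), and its log2 fold change ran from -0.27 to -0.20 with 1 library left out, with adjusted p of 1.4e-06 to 1 over all its alternatives. NEK2 also lost its call without the trend (adjusted p = 0.0284) and under median centring (-0.16, adjusted p = 0.0133), and HDAC6, PLK1, NEK2 and KIF24 lost it under limma treat. The treat test left 3317 differentially expressed genes (DEGs), with 2 of the 10 genes and 11 partner genes lower and 8 partner genes higher. Of the 10 genes, 2 rose under quantile normalization, under median centring and with an adjusted p under 0.05, which added KIF2A. With 1 library left out, the DEGs numbered 4900 to 5638 against 7509, the genes of the 10 that fell 3 to 6 against 7, the partner genes that fell 14 to 19 and those that rose 12 to 15; these fits have fewer libraries, and the treat test asks for a larger change. NEDD9 changed sign under median centring (0.037), edgeR (0.0902) and DESeq2 (0.0937), and ran from -0.38 to 0.25 with 1 library left out. The replicate block gave 6898 DEGs and changed the call of none of the 10 genes. The deviations of same-numbered libraries from their group means correlated at -0.121, -0.055 and -0.107, and none of the 6 libraries correlated best with its own number. With 3 libraries per group these values cannot exclude a shared batch or culture. For the other alternatives the cause was not tested. Depth limits NEDD9, AURKC and NEK10.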
